A study of Mus musculus with 6 samples.

Results

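The genes described here are 10 genes of the skeletal muscle programme, 4 myogenic regulators (*Myog*, *Myod1*, *Myf5* and *Myf6*) and 6 genes of the skeletal contractile apparatus (*Neb*, *Ryr1*, *Atp2a1*, *Tnnt3*, *Mylpf* and *Actn3*). They are 10 of the 54532 genes in the count table. Their measurements ask how complete a skeletal muscle programme was in cardiomyocytes (CMs) that overexpressed (OE) an active form of YAP. In YAP5SA OE CMs, *Myog* was detected in both libraries (19 and 52 counts) and *Neb* stood above GFP by a log2 fold change of 2.32, whereas *Myod1* and *Myf6* had 0 counts in every library and *Ryr1* and *Actn3* stayed at 3 counts or fewer. In YAP6SA OE CMs, *Myog* had 0 counts in both libraries and neither of the 2 genes that could be tested passed the threshold. The list was chosen by name with the skeletal genes of the YAP5SA libraries already known, so the values of YAP5SA OE CMs are a description, with no test, and only the comparison of YAP6SA with GFP was tested for these 10 genes.

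Wildtype ICR mice had received AAV9 under the skin at postnatal day 6, at 1e+11 viral genomes, and hearts were taken at day 9. The virus carried GFP (the control), YAP5SA or YAP6SA, each behind the cardiac troponin T (cTnT) promoter, which is active in CMs. YAP5SA lacks the serines that the LATS kinases phosphorylate, and YAP6SA carries in addition a serine-to-alanine change that disrupts binding to TEAD factors, so all groups, the control included, had virus and the same promoter. The 2 libraries of a group came from batches 1 and 2 and were made without strand information from the poly-A RNA of nuclei pulled down with PCM1, a protein around the CM nuclear envelope. The labels name 2 hearts per virus but do not say outright whether a library came from 1 heart or a pool. The p-values here measure only the spread between these libraries.

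Skeletal muscle is specified by 4 basic helix-loop-helix factors. Myf5 and MyoD commit progenitors, myogenin (*Myog*) drives their differentiation and fusion, and Myf6 acts in early commitment and in the mature fibre. They bind DNA with an E protein at the E-box and act with MEF2 factors on genes of the fast sarcomere, the triad and the neuromuscular junction. The heart has a sarcomere of its own, built largely from paralogues of the skeletal genes, and its CMs develop without these 4 factors.

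Shown are the sequences just upstream of *Myog*, of *Ryr1* and of 2 further skeletal genes that were high in YAP5SA OE CMs. The latter are *Cacna1s* (the voltage sensor of the skeletal triad) and *Mybph* (a thick filament protein). These examples were picked with their levels known. They place the letters bound by myogenic and TEAD factors beside genes that did and did not move. RefSeq promoter sequences of GRCm38.p6 were found for 5 of the 10 genes (*Myog*, *Myf5*, *Ryr1*, *Atp2a1* and *Mylpf*), and the 250 bases before each RefSeq start were searched on both strands. Each line runs 5′ to 3′ and ends where the GENCODE gene begins if that lies before the RefSeq start. Capitals mark the E-box CANNTG and the TEAD letters GGAATG.
Myog: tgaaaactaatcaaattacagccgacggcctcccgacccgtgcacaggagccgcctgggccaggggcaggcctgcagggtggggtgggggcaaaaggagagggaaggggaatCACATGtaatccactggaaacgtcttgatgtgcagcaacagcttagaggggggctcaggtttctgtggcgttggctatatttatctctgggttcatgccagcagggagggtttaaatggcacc
Cacna1s: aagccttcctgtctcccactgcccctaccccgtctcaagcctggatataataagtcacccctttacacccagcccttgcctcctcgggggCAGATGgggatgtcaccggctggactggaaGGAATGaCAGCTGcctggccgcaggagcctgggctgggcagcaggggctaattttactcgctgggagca
Mybph: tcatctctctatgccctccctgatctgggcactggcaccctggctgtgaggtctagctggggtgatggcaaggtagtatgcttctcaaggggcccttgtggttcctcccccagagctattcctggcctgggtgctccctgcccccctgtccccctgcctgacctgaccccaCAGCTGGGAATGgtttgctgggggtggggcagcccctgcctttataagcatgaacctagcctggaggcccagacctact
Ryr1: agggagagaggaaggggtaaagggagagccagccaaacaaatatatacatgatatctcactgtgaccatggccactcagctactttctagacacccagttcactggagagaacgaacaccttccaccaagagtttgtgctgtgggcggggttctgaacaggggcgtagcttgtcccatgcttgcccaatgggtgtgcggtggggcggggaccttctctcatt
These lie at chr1:134289754-134289988 (plus strand, 235 bases), chr1:136052561-136052749 (plus, 189 bases), chr1:134193198-134193447 (plus, 250 bases) and chr7:29125180-29125401 (minus, 222 bases), in this order. *Myog* held the E-box CACATG at -138 to -133 from the RefSeq start, and a further one, CAGTTG, at -12 to -7, which lies within the GENCODE exon and is not printed. In *Cacna1s* the TEAD letters at -130 to -125 stood 1 base before the E-box CAGCTG at -123 to -118, and an E-box CAGATG began at -160. In *Mybph* the E-box CAGCTG at -79 to -74 ran directly into the TEAD letters at -73 to -68. No E-box and no TEAD letters were found in the windows of *Ryr1* and *Myf5*, while *Atp2a1* and *Mylpf* each had an E-box CAGCTG, starting at -55 and -51. Among all 32851 RefSeq windows of this length, 66.2% held an E-box and 12.6% the TEAD letters, and 1.6% held both at most 10 bases apart, a measure chosen after these windows had been read. Searches for the MEF2 box (2.92% of windows) and the CArG box (1.47%) allowed no mismatch and had no hit in the windows of the 5 genes. Near matches, such as other A/T-rich stretches, were not searched for. The *Myog* line holds such a stretch, ctatatttat, which differs from the MEF2 letters searched only at its last base. Among other genes described below, TEAD letters stood in a window of *Myh1* and *Chrnb1*, higher in YAP5SA, and of *Acta2*, higher in both variants. They also stood in a window of *Eno3*, *Tmem38a* and *Nebl*, lower in YAP5SA. Further genes with them were *Acta1* and *Tnnt2*, not called in YAP5SA against GFP, and *Myh4*, with no counts in any library. The windows of *Myh2* and *Vgll2*, higher in YAP5SA, had none, and that of *Myh2* had no E-box. Whether the letters go with a change in level was not tested. A match is a description of these letters and not a binding site.

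The libraries held 14552847 to 19615627 gene counts each. CPM are counts scaled to the library size, and 3 counts, the most that a count of 0 allows, equal 0.153 to 0.199 CPM. This limit covers counting error alone. The nuclei had the genes of CMs, with 24704 to 55705 CPM summed over 6 CM markers, and the sum was lowest in the YAP5SA libraries (36128 and 24704 CPM, against 42136 and 55705 in GFP). *Pax7*, which defines the satellite cells of skeletal muscle, had 0 counts in all 6 libraries. The summed level of 6 satellite cell markers was 23.3 and 17.2 CPM in GFP, 33.7 and 18.1 CPM in YAP6SA and 34.5 and 25.2 CPM in YAP5SA. Only 1 of them could be tested, and it was not called in any comparison. In YAP5SA over GFP that marker rose by 0.48 on the log2 scale, with an unadjusted p under 0.05 (edgeR quasi-likelihood test). Of the untested ones, *Cdh15* was higher in both YAP5SA libraries than in both GFP libraries, and its counts are given with the fusion genes below. Markers of smooth muscle and mural cells summed to 274 to 447 CPM in GFP, 1414 to 1749 CPM in YAP6SA and 1508 to 2015 CPM in YAP5SA, and *Acta2*, smooth muscle actin, carried most of each rise. It was called higher in both variants, and of the other 4 markers tested 0 were called in YAP6SA and 1, *Myh11*, was called higher in YAP5SA. Of the 6 CM markers, 2 were called lower in YAP5SA against GFP (*Pln* and *Ryr2*, log2 fold change -1.04 and -0.81), where 9.18% of all genes tested were. In YAP5SA the macrophage marker *C1qa* was also called higher and the Schwann cell marker *Erbb3* lower, and 0 fibroblast or endothelial markers were called. The part of these cells in the results was not tested. In bulk nuclei, fewer cells of a type and less RNA per cell cannot be told apart.

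Of the 4 regulators, *Myog* alone had more than 7 counts in any library. *Myog* (ENSMUSG00000026459, chromosome 1, 134289989 to 134292548, plus strand, GRCm38) had 0 counts in both GFP libraries and in both YAP6SA libraries, and 19 and 52 counts in the YAP5SA libraries of batches 1 and 2. The groups did not overlap, and both YAP5SA libraries were above the limit of 3 counts. Its level in YAP5SA was 2.09 ± 1.17 CPM (mean ± SD, n = 2), at least 11.8-fold higher than GFP and at least 12.5-fold higher than YAP6SA, against a floor of 3 counts per library. It stood just under the filter used for testing, a median log2 CPM over 1 in at least 1 group, with 0.99 in YAP5SA.

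*Myod1* (ENSMUSG00000009471, chromosome 7, 46376474 to 46379099), the commitment factor named above, and *Myf6* (ENSMUSG00000035923, chromosome 10, 107492853 to 107494737), which is known as MRF4, had 0 counts in each of the 6 libraries, which allows up to 3 counts, or 0.199 CPM, in the shallowest. *Myf5* (ENSMUSG00000000435, beside *Myf6* on chromosome 10, 107482908 to 107486134), the earliest of the regulators in the embryo, had 1 and 0 counts in GFP, 0 and 7 in YAP6SA and 4 and 1 in YAP5SA. Its groups were near the limit of 3 counts and no fold is given for them.

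The structural genes divided by level. *Neb* (ENSMUSG00000026950, chromosome 2, 52136647 to 52378474, minus strand, 166 merged exons) encodes nebulin, the giant protein that runs along the skeletal thin filament. It had 139 and 121 counts in GFP, 178 and 200 in YAP6SA and 429 and 901 in YAP5SA, which is 7.60 ± 0.42 CPM, 10.6 ± 2.17 CPM and 39.5 ± 15.6 CPM (mean ± SD, n = 2). Each YAP5SA library was above each library of the other groups. The fitted log2 fold change of YAP5SA over GFP was 2.32 (standard error 0.25), the batches gave 1.96 and 2.68, and that of YAP5SA over YAP6SA was 1.87 (standard error 0.24). *Neb* was thus present in the control CMs and did not start from 0, as *Myog* did.

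*Tnnt3* (ENSMUSG00000061723, chromosome 7, 142498836 to 142516009), the fast skeletal troponin T, had 41 and 18 counts in GFP, 63 and 34 in YAP6SA and 45 and 34 in YAP5SA. The YAP5SA libraries lay within the range of the others and overlapped GFP on the CPM scale, at 2.44 ± 0.76 CPM against 1.67 ± 0.69 CPM. It passed the filter through the variants, with a median log2 CPM of 1.33 in YAP6SA, 1.31 in YAP5SA and 0.63 in GFP. *Mylpf* (ENSMUSG00000030672, chromosome 7, 127208890 to 127214298), the fast regulatory light chain of myosin, had 19 and 12 counts in GFP, 15 and 21 in YAP6SA and 21 and 25 in YAP5SA. *Atp2a1* (ENSMUSG00000030730, chromosome 7, 126445858 to 126463108), the calcium pump SERCA1 of fast fibres, had 22 and 12 counts in GFP, 11 and 14 in YAP6SA and 27 and 26 in YAP5SA. Both were higher in each YAP5SA library than in each GFP library in CPM, but by little. The ratio of scaled counts of YAP5SA to GFP was 1.55 for *Mylpf* (95% interval 0.96 to 2.52) and 1.62 for *Atp2a1* (1.04 to 2.58), and these intervals cover counting error only. *Atp2a1* shares 763 of its 3477 exon bases with *Rabep2* on the opposite strand, and without strand information reads of that stretch cannot be told apart.

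*Ryr1* (ENSMUSG00000030592, chromosome 7, 29003344 to 29125179), the calcium release channel of the skeletal triad, had 3 and 1 counts in GFP, 1 and 3 in YAP6SA and 1 and 1 in YAP5SA. *Actn3* (ENSMUSG00000006457, chromosome 19, 4861216 to 4877909), the alpha-actinin of fast fibre Z-discs, had 1 and 0 counts in GFP, 3 and 0 in YAP6SA and 0 and 0 in YAP5SA. Both stayed at or under 3 counts in each library, so no difference between groups was detectable at this depth. *Ryr1* has 21838 exon bases, so a low level per length would still have given reads.

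**Figure D1:**
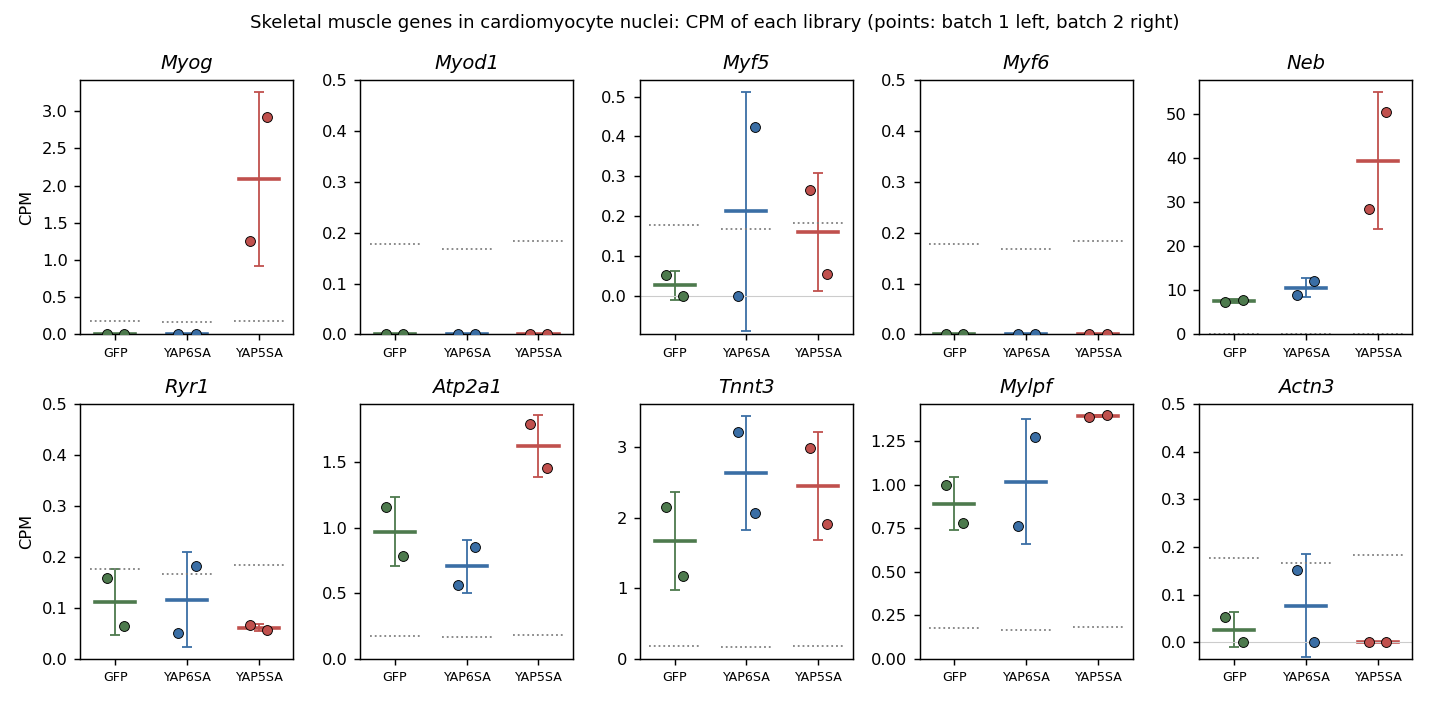
Level in CPM (vertical axes, each panel with its own scale) of the 10 genes in GFP, YAP6SA and YAP5SA libraries, with batch 1 on the left and batch 2 on the right of each pair of points. Thick lines show the mean and error bars the SD (n = 2), and dotted lines show 3 counts. *Myog* lies above 0 in the YAP5SA libraries alone, and *Neb* rises from a mean of 7.60 CPM in GFP to 39.5 CPM in YAP5SA, while *Ryr1* and *Actn3* stay at or under the dotted lines or close to them.

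In all, 5 of the 10 genes were higher in both YAP5SA libraries than in both GFP libraries on the CPM scale (*Myog*, *Myf5*, *Neb*, *Atp2a1* and *Mylpf*). That is 5 of the 8 with a count in any library, and the same held for 21.4% of the 27396 genes with a count. For *Myf5* the order rests on 1 count in the lower YAP5SA library. For YAP6SA over GFP the number was 1 of these 8, *Neb*, against 13.9% of genes with a count. Nothing is read from the first count, since the YAP5SA libraries were known when the genes were listed. The counts of the 10 genes summed to 226 and 164 in GFP, 271 and 279 in YAP6SA and 546 and 1040 in YAP5SA. Without *Neb* the sums were 87 and 43, 93 and 79, and 117 and 139. *Neb* made up 61.5% and 73.8% of the summed counts in GFP, 65.7% and 71.7% in YAP6SA and 78.6% and 86.6% in YAP5SA.

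Levels of different genes were compared per length, as RPKM (CPM per kilobase of merged exons). Merged exons join those of all annotated transcripts, so a gene that uses a shorter transcript gets too low a level. Which transcripts were used was not tested. In YAP5SA the highest levels were those of *Tnnt3* (1.54 ± 0.48 RPKM), *Neb* (1.48 ± 0.59), *Myog* (1.40 ± 0.78) and *Mylpf* (1.31 ± 0.01), and these 4 did not differ beyond their spread. *Atp2a1* followed at 0.467 ± 0.067 RPKM, below all of them in mean, and *Myf5* and *Ryr1* were at 0.077 and 0.0028 RPKM. In GFP the order was *Tnnt3* (1.05 ± 0.44 RPKM), *Mylpf* (0.839 ± 0.143), *Neb* (0.286 ± 0.016) and *Atp2a1* (0.279 ± 0.076), and neither the first 2 nor the last 2 differed beyond their spread. In YAP6SA it was *Tnnt3* (1.66 ± 0.51 RPKM), *Mylpf* (0.959 ± 0.340), *Neb* (0.398 ± 0.082) and *Atp2a1* (0.203 ± 0.059), and the libraries of neighbours did not overlap. Per length, *Neb* was thus below *Mylpf* in GFP and YAP6SA, and at a like level in YAP5SA.

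The test of YAP6SA against GFP covered 2 of the 10 genes, *Neb* and *Tnnt3*, and called 0 of them, in either direction. Over all 13323 genes tested, 0.045% were called (edgeR quasi-likelihood test, Benjamini-Hochberg adjusted p, FDR, under 0.05). *Neb* had a log2 fold change of 0.45 (standard error 0.24, edgeR FDR 0.855) and was higher in both YAP6SA libraries than in both GFP libraries. *Tnnt3* had a log2 fold change of 0.68 (standard error 0.46, edgeR FDR 0.903). Neither had an unadjusted p under 0.05, and 0 were called by DESeq2, by limma-voom or without the filter, where 8 of the 10 had a count and could be fitted. With standard errors of this size, changes as small as these fitted ones could not be told from 0.

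Each structural gene was set beside the paralogue that the heart uses. The merged exons of *Nebl* span 15235 bases and those of *Tnnt2* 7752. Percents of these 2 genes would be too high if CMs use shorter transcripts of them. *Neb* reached 0.770% and 0.714% of *Nebl* (nebulette, the short cardiac relative) in GFP, 1.04% and 1.32% in YAP6SA and 4.15% and 11.7% in YAP5SA, per length. The denominator was lower as well, since *Nebl* fell in YAP5SA (log2 fold change -0.90, standard error 0.22, edgeR quasi-likelihood FDR 0.0184). *Ryr1* was 0.0084% of *Ryr2*, the cardiac release channel, in GFP, 0.0083% in YAP6SA and 0.0078% in YAP5SA on average, and *Ryr2* also fell in YAP5SA (log2 fold change -0.81, standard error 0.25, edgeR FDR 0.0455). *Atp2a1* was 0.104% ± 0.013 of *Atp2a2* in YAP5SA, against 0.0444% ± 0.0174 in GFP. *Tnnt3* was 0.0936% ± 0.0087 of *Tnnt2*, against 0.0514% ± 0.0265, and *Mylpf* was 0.0767% ± 0.0070 of *Myl2*, against 0.0453% ± 0.0136. *Actn3* was at 0 in YAP5SA and at 0.0037% of *Actn2* in GFP. Of the 6 cardiac paralogues, 2 were called lower and 0 higher in YAP5SA against GFP, where 9.18% of all genes tested were called lower and 12.8% higher. Without the GFP library of batch 2 neither was called (edgeR FDR 0.216 for *Nebl* and 0.499 for *Ryr2*), nor without the YAP5SA library of batch 2 (0.0542 and 0.164), and *Ryr2* was not called without the batch term, in the 4-library fit, or without either YAP6SA library (edgeR FDR 0.0740, 0.0986, 0.101 and 0.105).

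**Figure D2:**
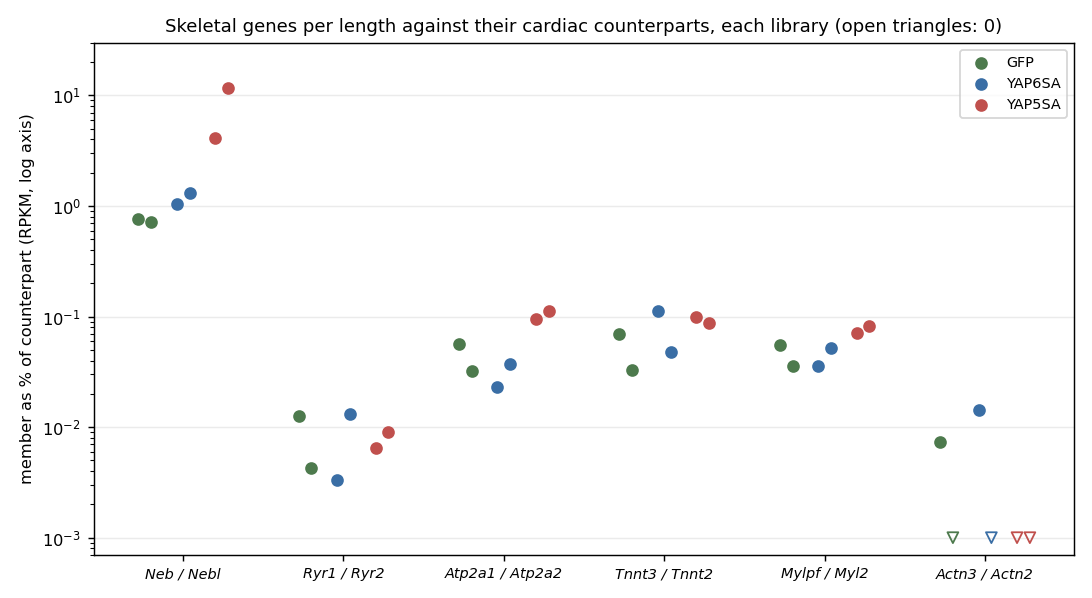
Each skeletal gene as a percent of its cardiac paralogue in RPKM (vertical log axis) in every library, coloured by group, with open triangles at the bottom for a value of 0. *Neb* in YAP5SA (4.15% and 11.7% of *Nebl*) is the highest pair of points, and the other 5 genes are at most 0.113% of their paralogue in each library.

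A wider list of 87 other skeletal muscle genes was tested over the same fit. This list, too, was chosen with earlier results of these data known. Its shares of called genes therefore describe these genes and are no independent support. Of these, 6 had 0 counts in all libraries (*Pax3*, *Pax7*, *Pitx3*, *Tnnc2*, *Myoz3* and *Myh4*), 14 including those had at most 3 in any library, and 59 passed the filter. In YAP5SA against GFP, 14 of the 59 rose and 10 fell (edgeR FDR under 0.05), which is 23.7% and 17.0%, against 12.8% and 9.18% of all genes tested. Their median log2 fold change was 0.04, beside -0.0031 over all genes tested. Genes that pass the filter through YAP5SA alone had to be higher there, and 7 of the 59 did so (*Eya1*, *Vgll2*, *Mybph*, *Myh1*, *Myh2*, *Myh8* and *Cacna1s*). Among the 52 that passed it in GFP, 8 rose and 10 fell, or 15.4% and 19.2%, against 11.5% and 9.78% of all such genes. The numbers over the 59 depended on single libraries. Without the GFP library of batch 2, fewer rose and fewer fell, and without the YAP5SA library of batch 1, more fell. Most of those still called higher without that GFP library were genes past the filter through YAP5SA alone, which had to be higher.

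Further regulators of the myogenic lineage came first. Of 15 tested, 3 rose and 0 fell in YAP5SA against GFP, and of the 13 past the filter in GFP, 2 rose, beside 11.5% of all such genes. *Vgll2*, a TEAD cofactor of skeletal muscle, had 2 and 1 counts in GFP, 1 and 0 in YAP6SA and 32 and 87 in YAP5SA, a ratio to GFP of 41.3 (95% counting interval 13.8 to 203). It passed the filter through YAP5SA alone, so its call is no support. *Id1*, which binds E proteins and keeps them from the myogenic factors, rose by 0.87 on the log2 scale (standard error 0.18, edgeR quasi-likelihood FDR 0.00951). *Id1* was not called without the GFP library of batch 2 (edgeR FDR 0.0930), nor without that of batch 1 or the batch term (0.0656 and 0.116).

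Of 5 myoblast fusion genes tested, all past the filter in GFP, 2 rose in YAP5SA against GFP, beside 11.5% of all such genes, and *Jam3*, *Cdon* and *Boc* were not called (edgeR quasi-likelihood FDR 0.319, 0.730 and 0.153). *Jam2*, a junctional adhesion molecule, rose from 834 and 777 counts in GFP to 2854 and 6826 in YAP5SA (log2 fold change 2.53, standard error 0.21, edgeR quasi-likelihood FDR 1.7e-04), and *Neo1*, a netrin receptor, by 0.50 (edgeR FDR 0.0423). *Mymk*, the fusogen myomaker, had 0 counts in GFP and YAP6SA and 4 and 7 in YAP5SA, at least 1.86-fold higher than GFP. *Mymx*, its partner myomixer, had 0 counts in GFP and YAP5SA and 5 and 4 in YAP6SA. *Cdh15*, M-cadherin, had 3 and 3 counts in GFP, 0 and 0 in YAP6SA and 8 and 50 in YAP5SA. These 3 did not pass the filter and were not tested. *Jam2* kept its call with each library left out, and *Neo1* lost it without either GFP library, without either YAP6SA library, without the batch term and in the 4-library fit (edgeR FDR 0.0872 to 0.338).

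At the neuromuscular junction, *Agrn* (agrin, the nerve-derived organiser, also made by other cells) rose by 0.94 on the log2 scale and *Chrnb1* (a subunit of the acetylcholine receptor) by 0.87, while *Dok7* (the activator of MuSK) fell by 1.30, of 7 tested (edgeR FDR 0.00633, 0.0273 and 0.00118). All 7 passed the filter in GFP, and of all such genes 11.5% rose and 9.78% fell. *Chrna1*, the receptor subunit that binds acetylcholine, had 3 counts in 1 YAP5SA library and 0 in the other 5. Leaving out the GFP library of batch 1 or 2 ended the calls of *Agrn* (edgeR FDR 0.0665 and 0.0616) and *Chrnb1* (0.0901 and 0.187), and the YAP5SA library of batch 2 that of *Chrnb1* (0.172).

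The higher counts of skeletal myosin heavy chains in YAP5SA were known before this list was made. *Myh2* (fast IIa) had 347 and 1041 counts and *Myh1* (fast IIx) 127 and 499 counts in YAP5SA, and both had 0 in the other 4 libraries, so that their levels were at least 230-fold and at least 103-fold higher than GFP. *Myh8*, the perinatal chain, had 1 and 0 counts in GFP, 5 and 6 in YAP6SA and 536 and 1170 in YAP5SA. These 3 passed the filter through YAP5SA alone, so their calls there were set by the filter and are given no weight. *Myh4*, the IIb chain, stayed at 0 counts, *Myh3*, the embryonic chain, had 0 and 1 in YAP5SA against 4 and 5 in GFP, and *Myh13*, an extraocular chain, had 15 and 18 in YAP5SA. These neighbouring genes are close in sequence, and how reads shared among them were divided is uncertain.

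Among filament and assembly genes, *Mybph* had 0 and 1 counts in GFP, 2 and 2 in YAP6SA and 43 and 77 in YAP5SA, a ratio to GFP of 125 (counting interval 22.0 to 4982), and *Mylk4*, a myosin light chain kinase, rose by 1.01 on the log2 scale. *Lmod3*, the leiomodin of skeletal thin filaments, fell by 0.78. Of the 11 tested genes past the filter in GFP, 1 rose and 1 fell, beside 11.5% and 9.78% of all such genes. *Tnnc2*, the fast troponin C, had 0 counts throughout. In the triad, *Cacna1s* had 11 and 23 counts in GFP, 6 and 19 in YAP6SA and 386 and 1158 in YAP5SA, a ratio to GFP of 47.3 (counting interval 33.7 to 68.6). *Mybph* and *Cacna1s* passed the filter through YAP5SA alone, and their calls are no support. *Casq1*, the calcium store protein of fast fibres, rose by 1.16, and *Tmem38a*, a potassium channel of the store, and *Clcn1*, the chloride channel of the fibre membrane, fell by 0.91 and 1.27. These are 1 higher and 2 lower of 7 past the filter in GFP, beside 11.5% and 9.78% of all such genes. *Ryr1*, the partner of *Cacna1s*, had 1 count in each YAP5SA library. *Lmod3*, *Casq1*, *Tmem38a* and *Clcn1* were not called without the GFP library of batch 2 (edgeR FDR 0.153, 0.138, 0.501 and 0.182). *Lmod3* and *Tmem38a* were not called without the YAP5SA library of batch 2 (0.0709 and 0.264), nor *Tmem38a* without the batch term (0.117).

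Of 9 energy enzymes of skeletal muscle tested, all past the filter in GFP, 0 rose and 6 fell in YAP5SA against GFP (*Gpd1*, *Pygm*, *Phkg1*, *Adssl1*, *Eno3* and *Phka1*), where 9.78% of genes past the filter in GFP fell. Without the GFP library of batch 2 only *Gpd1* and *Pygm* of these 9 were called (edgeR quasi-likelihood FDR 0.0387 and 0.0486). *Gpd1*, of the glycerol phosphate shuttle, fell by 1.26 on the log2 scale (standard error 0.20, edgeR quasi-likelihood FDR 0.00284) and *Pygm*, muscle glycogen phosphorylase, by 1.16 (standard error 0.22, edgeR FDR 0.00548). *Phkg1*, a subunit of phosphorylase kinase, fell by 1.16 and *Adssl1*, the muscle adenylosuccinate synthase, by 1.12. Each of the 6 had at least 471 counts in each GFP library, and heart muscle uses them too. Of 9 slow fibre genes that the heart shares, *Tpm3* and *Myl4* rose by 1.37 and 0.74 and *Tnnt1* fell by 0.96 on the log2 scale (edgeR FDR under 0.05), where 12.8% of all genes tested rose and 9.18% fell. Without that GFP library, *Phkg1*, *Adssl1*, *Eno3*, *Phka1*, *Myl4* and *Tnnt1* were not called (edgeR FDR 0.206, 0.0673, 0.160, 0.0674, 0.139 and 0.116), nor was *Phka1* without the GFP library of batch 1 (0.0619), nor *Phkg1* without the YAP5SA library of batch 2 or the batch term (0.0701 and 0.0557).

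**Figure D3:**
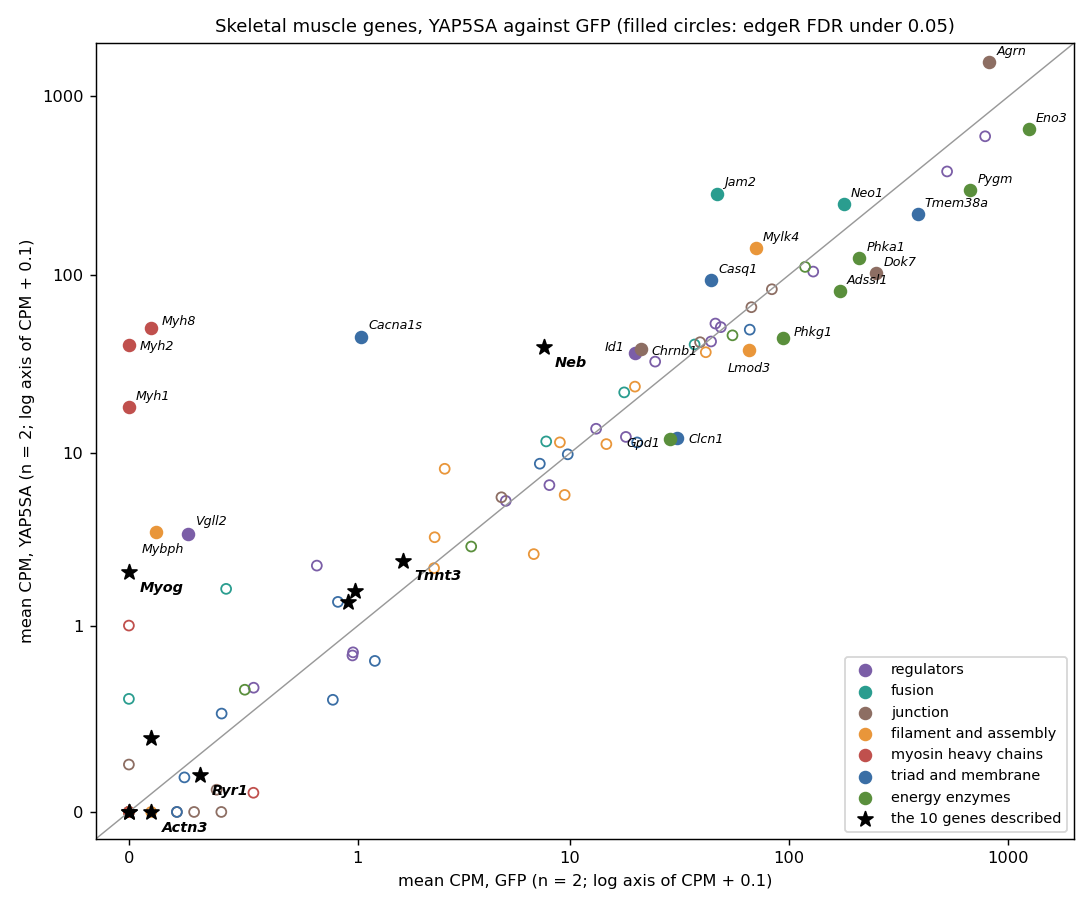
Mean level in GFP (horizontal) and in YAP5SA (vertical) of the genes of the wider list, but for 1 not reported here, and of the 10 genes described, in CPM on a log axis of CPM + 0.1 (n = 2 libraries each), with circles coloured by list and filled where edgeR called a difference, and stars for the 10 genes, which carry no test here. *Myh1*, *Myh2*, *Myh8*, *Mybph*, *Vgll2* and *Myog* stand at the left edge far above the diagonal, *Neb* and *Cacna1s* above it, and the energy enzymes lie on or below it.

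Against YAP6SA, 10 of the 59 genes were higher in YAP5SA and 11 lower, where 9.0% and 5.68% of all genes tested were. Of the 10, 6 passed the filter through YAP5SA alone and had to be higher. Among the 51 genes past the filter in YAP6SA, 4 were higher (*Jam2*, *Chrnb1*, *Agrn* and *Casq1*) and 11 lower, or 7.84% and 21.6%, beside 7.99% and 5.98% of all such genes. Without the batch term the number lower was 4, without the YAP6SA library of batch 1 it was 6, without that of batch 2 it was 1, and without the YAP5SA library of batch 2 it was 4. This comparison shares its YAP5SA libraries with the one against GFP. YAP6SA against GFP gave 0 higher and 0 lower by the edgeR quasi-likelihood test, with 4 higher and 1 lower at an unadjusted p under 0.05, and 3 higher (*Acta1*, *Ckm* and *Mylk4*) when only the 4 libraries compared were fitted. *Acta1*, skeletal alpha-actin, had 1380 and 173 counts in GFP, 3412 and 1636 in YAP6SA and 937 and 214 in YAP5SA, so that GFP and YAP5SA overlapped, while YAP5SA fell below YAP6SA by 2.33 on the log2 scale (standard error 0.37, edgeR quasi-likelihood FDR 0.00359).

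The genes whose levels over the 6 libraries were most like the mean log2 CPM of the 5 of the 10 genes with at least 10 counts in 2 libraries (*Myog*, *Neb*, *Atp2a1*, *Tnnt3* and *Mylpf*) were found among genes on none of the lists. Among 1242 tested genes that ranged over at least 2 log2 units, the highest Pearson r were those of *Arhgef16* (0.999), *Ect2* (0.998), *Racgap1* (0.997), *Arhgef39* (0.996), *Rbms3* (0.995), *Vnn1* (0.995), *2200002D01Rik* (0.994) and *Spag5* (0.993). *Ect2* and *Racgap1* encode binding partners that act in cytokinesis, and *Spag5* a spindle protein. *Ect2* had 524 and 322 counts in GFP, 575 and 515 in YAP6SA and 2291 and 3572 in YAP5SA. The r of the members themselves with that mean, of which they are part, were 0.983 for *Myog*, 0.973 for *Neb*, 0.834 for *Atp2a1*, 0.828 for *Mylpf* and 0.283 for *Tnnt3*. *Myog* ranged most of the 5, from -3.11 log2 CPM in the GFP and YAP6SA libraries to 1.60 in the YAP5SA library of batch 2. The low value is what 0 counts become with the prior count of 2 used here. The mean thus mainly followed *Myog* and *Neb*, and genes high in YAP5SA were bound to rank high. These are descriptions over 6 points that share libraries and batches, and the YAP5SA libraries were the highest for each of the 8 genes.

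**Figure D4:**
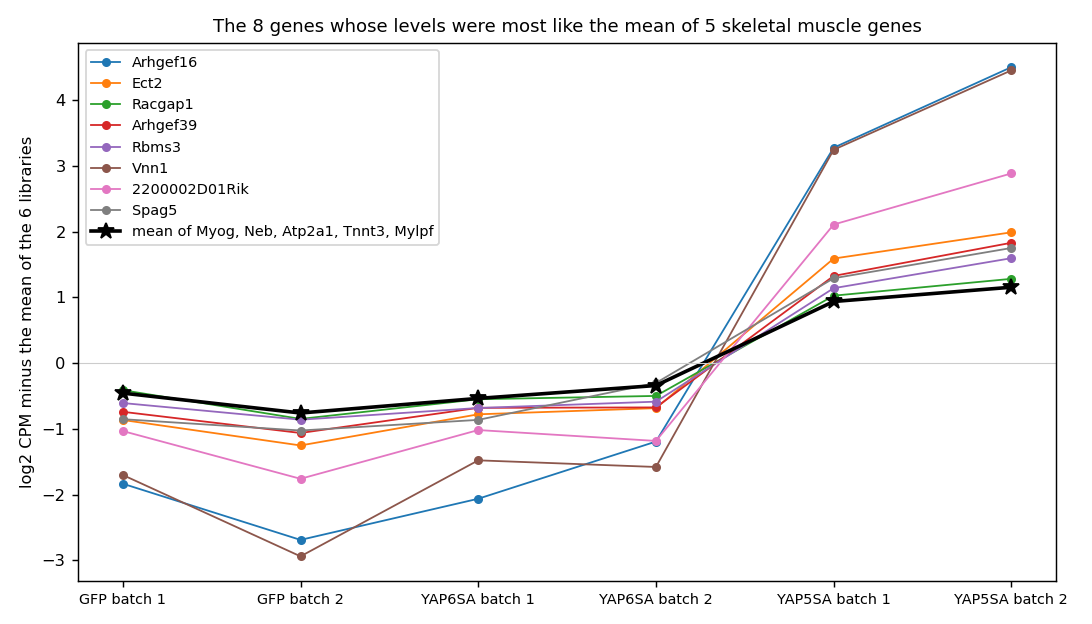
Log2 CPM of 8 genes and the mean of 5 skeletal muscle genes (black stars), each minus its own mean over the 6 libraries (vertical axis), by library (horizontal axis). All lines are low in the 4 GFP and YAP6SA libraries and high in the 2 YAP5SA libraries, with batch 2 above batch 1 in YAP5SA.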

How the data were processed

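Poly-A RNA of PCM1-bound CM nuclei was sequenced in 6 libraries. Alignment by the authors used STAR and mm10 (Ensembl GRCm38.94), and the deposited values are unscaled, unfiltered read counts of each gene. Reads outside genes (9.43% to 9.84% of a library), ambiguous between genes (5.79% to 6.31%), mapping to several places (2.90% to 4.19%) or unmapped (3.03% to 3.63%) are not in the gene counts. Gene IDs were named from GENCODE M21 (54495 of 54532), which also gave coordinates and exon lengths.

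The counts were fitted with edgeR 4.0.16 in R 4.3.3 (TMM scaling, quasi-likelihood test) in 1 model of all 6 libraries with terms for group and batch, over the 13323 genes with a median log2 CPM over 1 in at least 1 group, the filter of the study's methods. Standard errors are the log2 fold change divided by the root of F. Benjamini-Hochberg adjustment covered every gene in the fit, and the threshold was 0.05. The fit was tested on simulated data. The replicate number is the batch number in the labels, and libraries of a batch deviated from their group means together (correlations across genes 0.368, 0.0985 and 0.175), so the batch term pairs the groups. Replicates differed by more than counting error (chi-square over its degrees of freedom 25.3, 28.7 and 39.6), so no library was a copy.

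A gene of the wider list that is in the counts of calls is not reported here. The 10 genes and all gene lists were chosen with earlier results of these data known. Named are the 10 genes, their cardiac paralogues, up to 4 called genes of each list by size in YAP5SA against GFP, list genes at 0, and the 8 most alike genes. *Eno3*, *Phka1*, *Mymk*, *Mymx*, *Cdh15*, *Myh3*, *Myh13*, *Chrna1*, *Acta1*, *Ckm*, *Eya1*, *Jam3*, *Cdon*, *Boc* and the called genes of the other comparisons were added after their values were seen. Count ratios have exact 95% intervals. Alternatives were RLE and upper quartile scaling, no filter, the likelihood ratio test, DESeq2 1.42.0, limma-voom (limma 3.58.1), no batch term, fits of 4 libraries and each library left out.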

Additional observations from a re-analysis of the deposited data

How the results depend on the processing

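The 10 genes gave 0 calls in YAP6SA against GFP under every alternative run, and the number higher in both YAP5SA libraries than in both GFP libraries was 5 to 6 with a library left out. For the wider list, with a library left out, YAP5SA against GFP gave 8 to 16 higher and 3 to 17 lower, YAP6SA against GFP 0 to 3 higher, and YAP5SA against YAP6SA 8 to 14 higher and 1 to 16 lower. The lowest values came without GFP replicate 2 (8 higher and 3 lower, from 14 and 10) and without YAP6SA replicate 2 (1 lower, from 11). A group left with 1 library is assumed to vary like the others. YAP6SA against GFP gave 3 higher with no filter or in the 4-library fit and 2 by likelihood ratio, in place of 0. Without the replicate block, YAP5SA against YAP6SA gave 4 lower in place of 11, and YAP5SA against GFP 12 higher and 8 lower. The cause was not tested. The values of named genes include *Neb* and *Tnnt3* in YAP6SA against GFP, which were not called in the main fit. They also include both genes in YAP5SA against GFP, as a description with no test. For these, kept means the same direction and a log2 fold change that moved by less than the SD between batches. *Tnnt3* in YAP6SA against GFP got no adjusted p from DESeq2 and is counted as kept. The tallies that follow include *Vgll2*, *Mybph*, *Myh1*, *Myh2*, *Myh8* and *Cacna1s*. These passed the filter through YAP5SA alone, so their kept calls are no support. Of the values of named genes, 239 kept their direction and, where tested, their side of the threshold under other settings. Another 9 lost the call (*Myh1* and *Myh2* with DESeq2, 5 without the replicate block, 2 in the 4-library fit). With a library left out, 156 kept it and 30 lost it, 15 of them without GFP replicate 2, and no result changed direction. With 2 libraries per group, outlying libraries could not be tested for. Depth limits *Myod1*, *Myf6*, *Myf5*, *Ryr1* and *Actn3*, at 7 counts or fewer.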
